A study of Mus musculus with 4 samples.

Results

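The genes described here are the nuclear genes of oxidative phosphorylation, chosen by name alone: every gene whose symbol starts with Nduf, Uqcr, Atp5 or Cox4 to Cox8, together with Sdha, Sdhb, Sdhc, Sdhd, Cyc1 and Cycs, without pseudogenes and without Cox6a2. The rule used no measured value, but the members were chosen with earlier results of these data known. It gave 93 of the 24411 genes in the files. Of these, 36 are subunits of complex I, 7 are assembly factors of complex I, 4 belong to complex II, 9 to complex III, 19 to complex IV and 17 to complex V, and Cycs encodes cytochrome c. The symbols of Ndufa4 and its paralogue Ndufa4l2 begin like those of complex I, but both are counted here with complex IV. A minimum of reads was passed by 86 of the 93 genes. The files held no gene symbol with the mt- prefix, so the 13 subunits encoded by mitochondrial DNA were not analysed here.

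RNA was sequenced from B220-positive B cells sorted from the bone marrow of mouse tibiae and femurs, with 1 ug of total RNA per library. The design sets 2 libraries labelled Arid5b overexpression against 2 wildtype libraries. The sources used here give no strain, age, sex, transgene promoter or treatment, and nothing says whether each library came from a separate mouse, so p-values measure only the spread between these libraries. Arid5b, the gene named in the labels, encodes a chromatin protein that binds AT-rich DNA. It had 58127 reads in overexpression-labelled library 1 and 2770 in overexpression-labelled library 2, against 2993 and 2465 in wildtype libraries 1 and 2. The level of Arid5b thus goes against the label of overexpression-labelled library 2, and each labelled library was also compared alone with the wildtype pair.

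The libraries held between 14196665 and 20356404 reads, with 25.7% to 30.5% of them on the ribosomal precursor Rn45s. All 8 B cell markers checked, Cd79a and Pax5 among them, were present in every library, but not at equal levels. Ptprc, the gene of the sorting marker B220, had 5683 and 38260 reads in overexpression-labelled libraries 1 and 2, against 35704 and 27790 in wildtype. Its difference from wildtype in overexpression-labelled library 1 was -2.47 log2 units, beside -1.31 for Cd79a and 0.96 for Pax5. Overexpression-labelled library 1 stood apart: across all genes tested its log2 values correlated with those of the other 3 libraries at r between 0.786 and 0.792, where the other pairs lay between 0.964 and 0.982 (a description over 12617 genes that share each library). Wildtype library 1 differed from the rest in the sex-linked genes Xist (24 reads, against 68540 to 132008 elsewhere) and Ddx3y (3260 reads, against 0 or 1). The 3 members on the X chromosome, Ndufa1, Ndufb11 and Cox7b, had nearly equal log2 values in the wildtype libraries (for Ndufa1, 9.10 and 9.09).

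Oxidative phosphorylation takes place in the inner mitochondrial membrane. Complexes I and II pass electrons from NADH and succinate to ubiquinone, complex III passes them to cytochrome c, and complex IV hands them to oxygen. Complexes I, III and IV pump protons, and complex V, the ATP synthase, lets the protons return and makes ATP. Most subunits are encoded in the nucleus and imported, and these genes often rise and fall as a set. In the B lineage, respiration is known to be higher in large cycling precursors and in activated cells than in small resting cells.

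Oxidative phosphorylation genes stood higher in overexpression-labelled library 1 than in wildtype in every complex. Of the 86 genes tested, 71 rose and 1 fell (Atp5sl), by limma-trend with Benjamini-Hochberg adjustment over all 12617 genes and a threshold of 0.05. That is 82.6% of the members risen, where 26.8% of all genes tested rose and 34.4% fell. The median member difference was 1.04 log2 units, about a doubling on the log scale, and the median of all genes was -0.15. On the deposited log2 scale the difference was at least 1 for 46 members, and for 2311 of all 12617 genes. The value of overexpression-labelled library 1 lay above both wildtype values for 77 of 86 members (89.5%, against 41.4% of all genes). For 80 members, and for 10718 of all 12617 genes, the difference was wider than the gap between the wildtype libraries. The median of that gap over the members was 0.13 log2 units. This fit takes the spread of the lone labelled library from the wildtype pair and from limma's prior. With no filter on low reads, which brings 17905 genes into the fit, 49 of the 72 calls ended, those of Uqcr11, Sdhd and Atp5b among them, with the differences themselves unchanged. RNA per cell and the number of cells of a given kind cannot be told apart in these sorted bulk samples.

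No oxidative phosphorylation gene passed the threshold in overexpression-labelled library 2. Limma called 0 of 86 members against wildtype, where it called 0.769% of all genes as higher and 0.888% as lower. Limma-voom on the recovered reads called 1 member, Cyc1. The median member difference was 0.16 log2 units, beside 0.01 for all genes. Above 0 lay 65 of 86 members, and 6494 of all 12617 genes. Values above both wildtype libraries were found for 55 members (64%, against 38.7% of all genes) and values below both for 14 (16.3%, against 37.3%). Both comparisons use the same wildtype libraries.

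**Figure D1:**
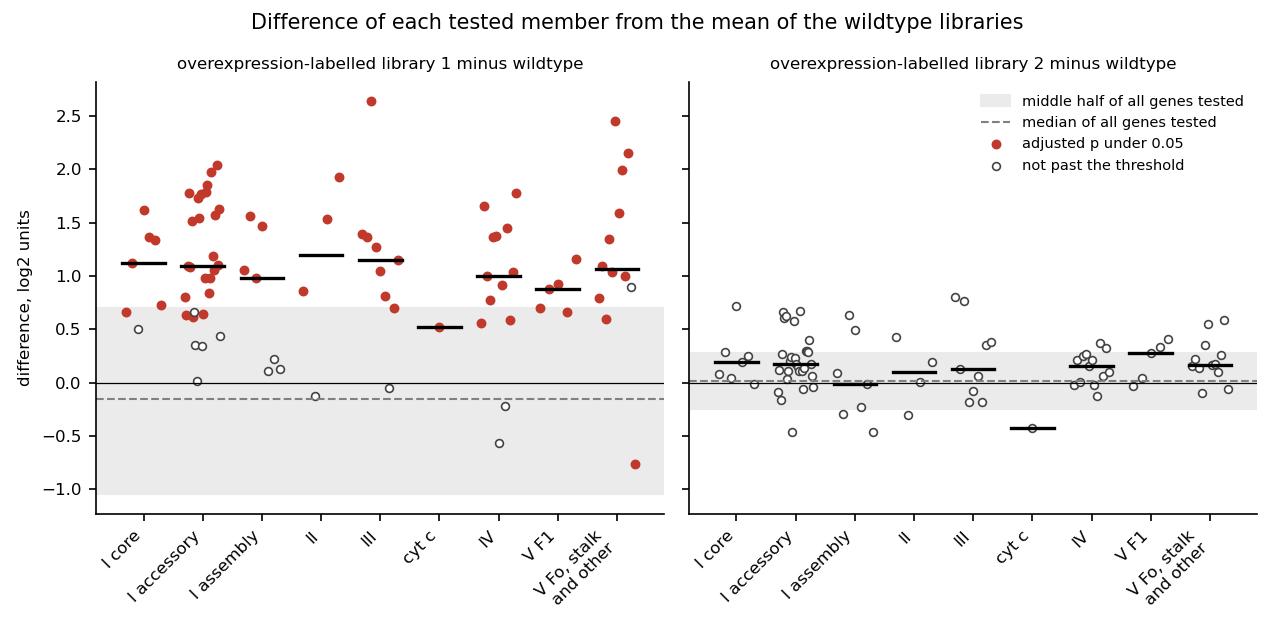
Difference of each of the 86 tested members from the mean of the wildtype libraries, in log2 units, for overexpression-labelled library 1 (left) and overexpression-labelled library 2 (right), by complex; points are genes, black bars are group medians, filled points passed a limma adjusted p under 0.05, the dashed line is the median of all genes tested and the grey band spans their quartiles. The left panel holds 71 filled points above 0 and 1 below, and the right panel holds 0 filled points.

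Taken over all members, the share of reads left after removing Rn45s was 0.995% in overexpression-labelled library 1 and 0.477% in overexpression-labelled library 2, against 0.440% and 0.433% in wildtype libraries 1 and 2. Folds given below are ratios of reads, scaled with the deposited size factors, to the wildtype mean. Such a ratio can exceed the fold that a difference of the deposited log2 values gives. Levels between genes are compared here only per length, scaled with the deposited size factors. They are reads per kilobase of the principal transcript per 1000000 reads (RPKM). Summed over members they came to 6202 and 3338 RPKM in overexpression-labelled libraries 1 and 2, against 2940 and 3003 RPKM in wildtype. The wildtype libraries thus differed by less than the step to either labelled library, and the step to library 1 was the larger.

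**Figure D2:**
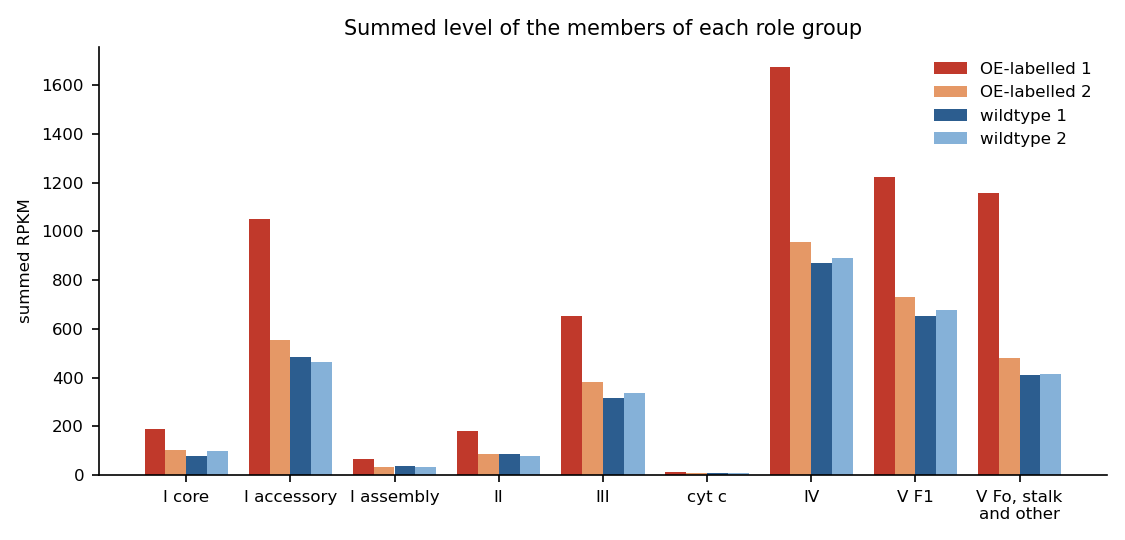
Summed RPKM of the members of each complex or role group (bars, from 0) in overexpression-labelled libraries 1 and 2 and wildtype libraries 1 and 2. In all 9 groups the bar of overexpression-labelled library 1 is the highest; for complex IV it stands at 1673 RPKM, with 957 RPKM in overexpression-labelled library 2, against 869 and 890 RPKM in wildtype.

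Promoter sequences are shown for 7 members: Ndufc2, Sdhd, Uqcr11, Ndufa4 and Atp5j, which had the largest rises of complexes I to V, Cycs, whose promoter is a textbook target of nuclear respiratory factor 1, and Atp5o, which had the largest rise in complex V after Atp5j. The windows are from RefSeq (GRCm38.p6), run from 250 bases before to 50 after the annotated start, and are printed in the direction of the gene, which is the plus strand for Ndufc2 and the minus strand for the others. Capitals mark matches to the letters of 4 factors known to act on respiratory genes, searched on both strands: GCGCATGC for nuclear respiratory factor 1, CCGGAAG for GABPA and other ETS factors, ATGGCGG for YY1 and AAGGTCA for ERRA. The complement of the first word overlaps it, so a symmetrical site matches on both strands, and no match of one motif overlapped another in the windows shown.
Ndufc2, chr7:97399753-97400052: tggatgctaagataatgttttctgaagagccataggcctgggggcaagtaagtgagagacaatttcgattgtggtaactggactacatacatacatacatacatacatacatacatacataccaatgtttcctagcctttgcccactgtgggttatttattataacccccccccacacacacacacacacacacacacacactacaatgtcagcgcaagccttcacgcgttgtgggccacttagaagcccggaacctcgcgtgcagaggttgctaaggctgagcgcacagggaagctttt
Ndufa4, chr6:11907401-11907700: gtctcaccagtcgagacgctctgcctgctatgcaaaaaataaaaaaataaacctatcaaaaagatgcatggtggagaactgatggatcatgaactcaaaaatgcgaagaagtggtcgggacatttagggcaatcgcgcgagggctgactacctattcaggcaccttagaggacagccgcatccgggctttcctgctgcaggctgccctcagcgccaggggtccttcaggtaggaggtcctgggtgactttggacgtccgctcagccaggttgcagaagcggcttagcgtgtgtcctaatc
Atp5j, chr16:84834927-84835226: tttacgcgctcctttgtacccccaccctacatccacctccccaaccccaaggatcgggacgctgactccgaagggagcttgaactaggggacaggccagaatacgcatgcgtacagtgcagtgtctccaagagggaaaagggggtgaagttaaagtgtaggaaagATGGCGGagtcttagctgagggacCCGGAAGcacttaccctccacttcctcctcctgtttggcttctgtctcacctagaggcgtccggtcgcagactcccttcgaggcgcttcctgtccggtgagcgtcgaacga
Uqcr11, chr10:80406772-80407071: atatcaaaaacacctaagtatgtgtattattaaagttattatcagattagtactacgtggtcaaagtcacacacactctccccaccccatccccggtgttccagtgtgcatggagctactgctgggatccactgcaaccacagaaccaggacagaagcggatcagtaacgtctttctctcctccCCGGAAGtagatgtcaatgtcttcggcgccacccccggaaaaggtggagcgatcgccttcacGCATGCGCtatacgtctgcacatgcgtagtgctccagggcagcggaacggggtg
Sdhd, chr9:50603800-50604099: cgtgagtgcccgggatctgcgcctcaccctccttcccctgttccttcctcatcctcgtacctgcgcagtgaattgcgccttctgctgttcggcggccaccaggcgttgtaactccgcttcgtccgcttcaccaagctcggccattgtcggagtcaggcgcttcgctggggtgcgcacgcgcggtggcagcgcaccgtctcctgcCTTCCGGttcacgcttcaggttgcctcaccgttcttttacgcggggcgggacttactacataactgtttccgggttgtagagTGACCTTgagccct
Cycs, chr6:50566520-50566819: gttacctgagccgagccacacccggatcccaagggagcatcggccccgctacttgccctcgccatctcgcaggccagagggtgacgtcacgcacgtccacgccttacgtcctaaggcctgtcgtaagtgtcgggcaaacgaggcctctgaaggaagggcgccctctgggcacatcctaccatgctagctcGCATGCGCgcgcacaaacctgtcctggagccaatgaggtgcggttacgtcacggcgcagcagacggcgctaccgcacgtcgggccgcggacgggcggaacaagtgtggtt
Atp5o, chr16:91931581-91931880: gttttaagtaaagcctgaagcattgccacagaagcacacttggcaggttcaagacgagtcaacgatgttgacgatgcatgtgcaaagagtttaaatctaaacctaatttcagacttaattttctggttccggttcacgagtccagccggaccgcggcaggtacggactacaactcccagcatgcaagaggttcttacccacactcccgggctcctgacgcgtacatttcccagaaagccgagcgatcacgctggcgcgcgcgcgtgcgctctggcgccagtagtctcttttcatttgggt
Atp5j held a YY1 and an ETS match on its own strand, 85 and 61 bases before the start. Uqcr11 held an ETS match 66 bases before the start and, on the other strand, a nuclear respiratory factor 1 match across the start. Sdhd held an ETS match 46 bases before the start and an ERRA match after it, and Cycs a nuclear respiratory factor 1 match 60 bases before it, all on the other strand. The windows of Ndufc2, Ndufa4 and Atp5o held no match. RefSeq gives Atp5j 2 windows: the one printed starts inside the gene, and the one around the outer annotated start of Atp5j (chr16:84835576-84835875) held no match.

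A promoter window was given for 75 of the 93 members, and 40 of the 75 held at least 1 of the 4 motifs (53.3%, against 34.3% of the 9522 tested genes with a window and 20.5% of all 27025). Nuclear respiratory factor 1 letters were in 17.3% of member windows, against 6.07% of windows of tested genes. ETS letters were in 22.7%, against 20.4%, YY1 letters in 16%, against 9.42%, and ERRA letters in 10.7%, against 3.97%. The matches were thus more frequent in members than in tested genes for 3 motifs and about as frequent for ETS, as a description. Members with any match and members without one had the same median difference in overexpression-labelled library 1, 1.04 log2 units (39 and 32 tested members). By single motif, the medians with and without a match were 1 and 1.05 for nuclear respiratory factor 1 and 1.05 and 0.99 for ETS. They were 0.86 and 1.05 for YY1 (12 and 59 tested members) and 1.34 and 1.01 for ERRA (7 and 64). A match of letters is not a bound site.

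Complex I takes electrons from NADH. Its 7 nuclear core subunits carry the flavin and the iron-sulfur clusters, and 6 of them rose in overexpression-labelled library 1 (median 1.12 log2 units). Ndufs7, an iron-sulfur subunit beside the quinone site, led with 25.4 and 12.85 RPKM in overexpression-labelled libraries 1 and 2, against 6.53 and 8.04 RPKM in wildtype libraries 1 and 2. It was 1.62 log2 units higher in overexpression-labelled library 1 (SE 0.280, limma adjusted p = 0.000241), a 3.49-fold rise, and 0.71 higher in overexpression-labelled library 2, which did not pass (limma adjusted p = 0.262). Ndufs8 (1.37), Ndufv1, the NADH-binding subunit (1.34), Ndufv2 (0.73) and Ndufs1 (0.66) also rose in overexpression-labelled library 1. Ndufs3 did not pass: it had 21.4 and 15.3 RPKM in overexpression-labelled libraries 1 and 2, against 11.6 and 18.6 RPKM in wildtype. Its wildtype values were wide apart, and the difference of 0.50 log2 units had a 95% interval from -0.10 to 1.10 (limma adjusted p = 0.133; with library totals it passed, at 0.64 log2 units and 0.0443).

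Among the accessory subunits of complex I, which surround the core and stabilise it, 23 of 28 tested genes rose in overexpression-labelled library 1 (median 1.09) and 5 did not pass. Ndufc2, a membrane-arm subunit, had 82.3 and 24.8 RPKM in overexpression-labelled libraries 1 and 2, against 15.1 and 22.1 RPKM in wildtype. Its difference of 2.04 log2 units in overexpression-labelled library 1 (SE 0.25, limma adjusted p = 1.24e-05) was the largest of the group. Ndufb7 (1.98), Ndufb4 (1.85), Ndufb3 (1.79), Ndufa12 (1.78) and Ndufab1, the mitochondrial acyl carrier protein (1.77), followed. Ndufb11, the highest of the group by mean RPKM over the 4 libraries, rose by 0.64 log2 units. Ndufa7 stayed within the spread: it had 40.5 and 46.7 RPKM in overexpression-labelled libraries 1 and 2, against 38.9 and 41.4 RPKM in wildtype (difference 0.01, 95% interval -0.46 to 0.49, limma adjusted p = 0.964). Ndufa5, Ndufa6, Ndufb10 and Ndufv3 had differences between 0.34 and 0.66 that did not pass, although Ndufa5 passed with library totals (limma adjusted p = 0.0312). Ndufs5 is listed with 0 to 2 reads in every library and was not tested; a near-identical copy of part of its transcript exists in another gene.

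Of the 7 assembly factors of complex I, 4 rose in overexpression-labelled library 1. Ndufaf2, a chaperone of late assembly, had 14.9 and 2.69 RPKM in overexpression-labelled libraries 1 and 2, against 3.18 and 4.31 RPKM in wildtype (1.56 log2 units in overexpression-labelled library 1, SE 0.359, limma adjusted p = 0.00212). Ndufaf4 rose by 1.47, Ndufaf1 by 1.05 and Ndufaf3 by 0.98 log2 units, though Ndufaf3 did not pass with a filter on a mean of 10 reads (limma adjusted p = 0.0987). Ndufaf5, Ndufaf6 and Ndufaf7, of which Ndufaf5 modifies the core subunit Ndufs7, differed by 0.11 to 0.22 and did not pass. The subunit Ndufs7 thus rose while the factor that hydroxylates it, Ndufaf5, had 9.59 and 7.35 RPKM in overexpression-labelled libraries 1 and 2, against 8.10 and 9.59 RPKM in wildtype.

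Complex II, succinate dehydrogenase, is also an enzyme of the citric acid cycle and has no mitochondrially encoded subunit. In overexpression-labelled library 1, 3 of its 4 genes rose and the iron-sulfur subunit Sdhb did not pass. Sdhd, a membrane anchor, had 91.7 and 26.7 RPKM in overexpression-labelled libraries 1 and 2, against 25.6 and 20.9 RPKM in wildtype, and only overexpression-labelled library 1 stood clear of the others. It was 1.93 log2 units higher there (SE 0.188, limma adjusted p = 1.39e-06), a 3.94-fold rise. The other anchor, Sdhc, rose by 1.53 log2 units, and the flavoprotein Sdha by 0.86. Sdhb had 25.7 and 22.5 RPKM in overexpression-labelled libraries 1 and 2, against 31.1 and 25.6 RPKM in wildtype (difference -0.13, 95% interval -0.57 to 0.31, limma adjusted p = 0.601). The anchors and Sdhb thus moved unequally within this small complex.

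In complex III, 8 of 9 genes rose in overexpression-labelled library 1 (median 1.15). Uqcr11, a small supernumerary subunit, had 462 reads in overexpression-labelled library 1 and 129 in overexpression-labelled library 2, against 53 and 55 in wildtype, or 62.7 and 14.7 RPKM, against 6.11 and 8.80 RPKM. This was the largest rise of all members, 2.64 log2 units on the deposited scale (SE 0.323) and 8.41-fold by scaled reads in overexpression-labelled library 1. In overexpression-labelled library 2 it was 0.77 log2 units higher and did not pass (limma adjusted p = 0.320). Cyc1, cytochrome c1, had 38.0 and 24.9 RPKM in overexpression-labelled libraries 1 and 2, against 11.9 and 16.1 RPKM in wildtype, so both labelled libraries lay above both wildtype libraries. It rose by 1.39 log2 units in overexpression-labelled library 1 (SE 0.220, limma adjusted p = 0.000119). In overexpression-labelled library 2 its difference of 0.80 (SE 0.229) had the smallest adjusted p of any member there, 0.116 by limma and 0.0197 by limma-voom. Uqcrfs1, the Rieske iron-sulfur protein, was the exception in complex III, with 45.1 and 41.3 RPKM in overexpression-labelled libraries 1 and 2, against 46.3 and 47.5 RPKM in wildtype. Both labelled libraries lay below both wildtype libraries for Uqcrfs1, but the difference in overexpression-labelled library 1 was -0.05 log2 units (95% interval -0.40 to 0.29, limma adjusted p = 0.781). Cycs, the soluble carrier between complexes III and IV, had 13.8 and 6.93 RPKM in overexpression-labelled libraries 1 and 2, against 9.32 and 9.62 RPKM in wildtype. It rose in overexpression-labelled library 1 (0.52, SE 0.191, limma adjusted p = 0.0299) and was lower without passing in overexpression-labelled library 2 (-0.42, limma adjusted p = 0.336); 7 other genes hold a near-identical copy of part of its transcript.

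Complex IV, cytochrome c oxidase, had 13 tested genes, of which 11 rose in overexpression-labelled library 1 (median 1.00). Ndufa4, first assigned to complex I, had 140 and 42.1 RPKM in overexpression-labelled libraries 1 and 2, against 35.75 and 42.7 RPKM in wildtype (1.78 log2 units in overexpression-labelled library 1, SE 0.195, limma adjusted p = 4.27e-06). Cox5a (1.66), Cox7b (1.45), Cox6c (1.37) and Cox6b1 (1.37) came next. Cox4i1, the common form of subunit 4 and the highest of the complex by mean RPKM over the 4 libraries, rose less: it had 213.5 and 142.4 RPKM in overexpression-labelled libraries 1 and 2, against 140.6 and 148.2 RPKM in wildtype (0.56 log2 units in overexpression-labelled library 1, SE 0.140, limma adjusted p = 0.00380).

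Several subunits of complexes IV and V have tissue forms. Of the subunit 7a family, Cox7a2, the widely expressed form, had 90.8 and 46.1 RPKM in overexpression-labelled libraries 1 and 2, against 47.6 and 46.3 RPKM in wildtype, and rose by 0.92 log2 units in overexpression-labelled library 1 (limma adjusted p = 0.000765). Cox7a2l, related to subunit 7a and known to join complexes III and IV into supercomplexes, had 96.4 and 102.9 RPKM in overexpression-labelled libraries 1 and 2, against 111.7 and 113.3 RPKM in wildtype. Both labelled libraries lay below both wildtype libraries for Cox7a2l, although the difference in overexpression-labelled library 1 did not pass (-0.22, 95% interval -0.52 to 0.09, limma adjusted p = 0.192). The heart and muscle form Cox7a1 had 7 and 28 reads in overexpression-labelled libraries 1 and 2, against 21 and 15 in wildtype, and did not pass (limma adjusted p = 0.267). Other tissue forms were at or near 0: Cox7b2 and Cox8c had 0 reads in every library, Cox4i2 and Ndufa4l2 at most 2, Cox8b at most 13 and Cox6b2 at most 14. The common forms Cox6b1 and Cox8a were therefore the ones measured for subunits 6b and 8.

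Subunit c, which forms the rotating ring of ATP synthase, is encoded by 3 genes for the same mature protein. Atp5g3 had 164.6 and 59.1 RPKM in overexpression-labelled libraries 1 and 2, against 61.5 and 65.6 RPKM in wildtype, and rose by 1.34 log2 units in overexpression-labelled library 1 (limma adjusted p = 1.07e-05). Atp5g1 rose by 1.09 and Atp5g2 by 0.60 log2 units. Atp5g3 and Atp5g2 were close in the wildtype libraries (Atp5g2 had 47.5 and 52.0 RPKM), and in overexpression-labelled library 1 Atp5g3 stood at 164.6 RPKM beside 76.2 RPKM for Atp5g2.

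**Figure D3:**
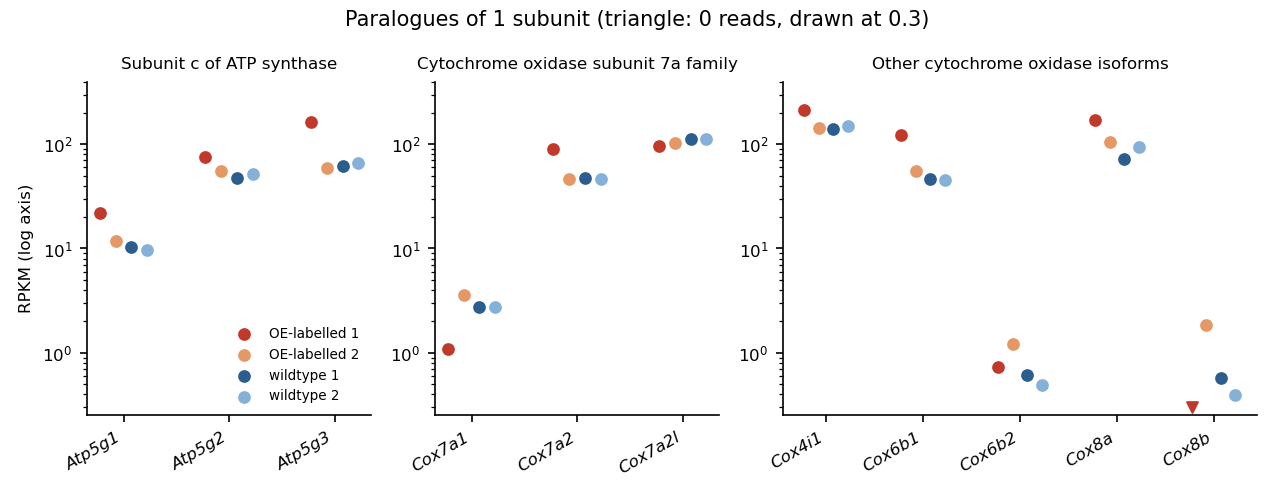
RPKM of genes that encode forms of 1 subunit, in overexpression-labelled libraries 1 and 2 and wildtype libraries 1 and 2 (log axis; a triangle marks 0 reads). Cox7a2l lies lower in both labelled libraries than in wildtype, Cox7a2 lies highest in overexpression-labelled library 1 at 90.8 RPKM, and Atp5g3 reaches 164.6 RPKM there.

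The catalytic head of ATP synthase, F1, moved evenly. All 5 of its genes rose in overexpression-labelled library 1, by 0.66 (Atp5d) to 1.16 log2 units (Atp5e). Atp5b, the catalytic beta subunit, was the highest member in every library, with 576 and 323 RPKM in overexpression-labelled libraries 1 and 2, against 306 and 321 RPKM in wildtype. It rose by 0.88 log2 units in overexpression-labelled library 1 (SE 0.115, limma adjusted p = 2.38e-05), and its alpha partner Atp5a1 by 0.70.

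All 10 subunits of the membrane part and stalk of ATP synthase rose in overexpression-labelled library 1, by 0.60 (Atp5g2) to 2.45 log2 units (Atp5j). The other 2 genes with the Atp5 prefix, Atp5s and Atp5sl, encode factor B and a related assembly protein and did not rise. Atp5j, coupling factor 6 of the peripheral stalk (chr16:84827866-84835625, GRCm38, minus strand), had 3243 reads in overexpression-labelled library 1 and 1015 in overexpression-labelled library 2, against 651 and 504 in wildtype, or 242 and 63.6 RPKM, against 41.3 and 44.4 RPKM. It was 2.45 log2 units higher in overexpression-labelled library 1 (SE 0.163, limma adjusted p = 3.37e-08), a 5.66-fold rise and the smallest adjusted p of any member. In overexpression-labelled library 2 its difference was 0.55 (limma adjusted p = 0.170). By level, Atp5j ranked 2 among the members in overexpression-labelled library 1 and 13 in overexpression-labelled library 2, against 24 and 20 in wildtype. The stalk subunit OSCP, Atp5o, rose by 2.16 log2 units on the deposited scale (SE 0.166) and 4.62-fold by scaled reads in overexpression-labelled library 1. Atp5o had 185 and 48.5 RPKM in overexpression-labelled libraries 1 and 2, against 41.0 and 39.25 RPKM in wildtype. Of the other stalk subunits, Atp5h rose by 1.04 and Atp5f1 by 0.79 in overexpression-labelled library 1. Subunit e, Atp5k, which helps ATP synthase form dimers, rose 4.66-fold.

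Atp5sl was the single member to fall in overexpression-labelled library 1. Its product is related to the factor B gene Atp5s and acts in the assembly of the complex I membrane arm. Atp5sl had 3.37 and 5.89 RPKM in overexpression-labelled libraries 1 and 2, against 7.12 and 5.34 RPKM in wildtype, a difference of -0.77 log2 units in overexpression-labelled library 1 (SE 0.280, limma adjusted p = 0.0294). The call ended under the 3 other scalings, where the difference lay between -0.60 and -0.68 (limma adjusted p = 0.0525 to 0.0966), with no filter (0.196) and with a filter on a mean of 10 reads (0.0743). Atp5s had 55 and 48 reads in overexpression-labelled libraries 1 and 2, against 33 and 12 in wildtype, and did not pass (0.89, limma adjusted p = 0.0793; with library totals it did, at 0.0452).

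The group of stalk, membrane and factor B genes took 18.7% of the summed RPKM of all members in overexpression-labelled library 1 and 14.4% in overexpression-labelled library 2, against 13.9% in both wildtype libraries. The F1 head took 19.7% and 21.9% in overexpression-labelled libraries 1 and 2, against 22.2% and 22.6% in wildtype, and complex IV 27% and 28.7%, against 29.5% and 29.7%. Cytochrome c took 0.223% and 0.208% in overexpression-labelled libraries 1 and 2, against 0.317% and 0.32% in wildtype. These shares do not depend on the scaling between libraries. Across the 86 tested members the log2 values of the wildtype libraries correlated at r = 0.981, overexpression-labelled library 2 with wildtype at 0.971 and 0.981, and overexpression-labelled library 1 with wildtype at 0.882 and 0.902 (a description; members share each library, its depth and their lengths).

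The comparison of both labelled libraries with both wildtype libraries follows the labels, although Arid5b was raised in 1 of the 2 labelled libraries. Limma called 0 of 86 members and 0% of all 12617 genes, with 2 members and 280 genes at an unadjusted p under 0.05, and limma-voom called 0 as well. The median member difference was 0.62 log2 units, beside -0.08 for all genes. Both labelled libraries lay above both wildtype libraries in 53 members (61.6%, against 19.6% of all genes), and below both in 2 members, Uqcrfs1 and Cox7a2l, where 23% of all genes did. Cyc1, for example, averaged 10.88 ± 0.416 log2 units in the labelled libraries and 9.78 ± 0.287 in wildtype (SD, n = 2 each; difference 1.10, SE 0.370, limma adjusted p = 0.726). Overexpression-labelled library 1 exceeded overexpression-labelled library 2 in 81 of 86 members, and in 5680 of all 12617 genes. The median of library 1 minus library 2 was 0.86 log2 units for members and -0.14 for all genes. The group difference of the members rests largely on library 1. Without library 1 their median difference was 0.16, and without library 2 it was 1.04.

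The counts of other mitochondrial genes in overexpression-labelled library 1 stand beside the same shares of all genes tested, 26.8% risen and 34.4% fallen. Of the enzymes of pyruvate oxidation and the citric acid cycle, 15 of 19 rose and 0 fell (median 0.69). Idh2, the mitochondrial NADP-dependent isocitrate dehydrogenase, led at 2.69 log2 units (limma adjusted p = 7.37e-06), with 16.4 and 3.28 RPKM in overexpression-labelled libraries 1 and 2, against 1.74 and 1.96 RPKM in wildtype. Citrate synthase, Cs, often used as a measure of mitochondrial content, had 47.7 and 43.1 RPKM in overexpression-labelled libraries 1 and 2, against 38.9 and 40.1 RPKM in wildtype, and did not pass (0.27, limma adjusted p = 0.109); it passed under the 3 other scalings, at 0.37 to 0.47 log2 units. Among 10 tested carriers, porins and the ATP synthase inhibitor, 7 rose and 0 fell (median 0.99). The porin Vdac1 rose by 1.83, the inhibitor Atpif1 by 1.77 and the uncoupling protein Ucp2 by 1.34 log2 units. Of 17 import and chaperone genes, 9 rose, led by Timm13 (2.68), and 1 fell, the outer membrane receptor Tomm20 (-0.83, limma adjusted p = 0.000293).

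Of the assembly factors outside the naming rule, 15 of 37 rose and 3 fell in overexpression-labelled library 1 (median 0.63), where 26.8% of all genes rose and 34.4% fell. Coa3, an assembly factor of complex IV, rose by 2.17 log2 units. Sdhaf1, which delivers iron-sulfur clusters to Sdhb, fell: it had 16 and 356 reads in overexpression-labelled libraries 1 and 2, against 198 and 149 in wildtype (-2.39 log2 units in overexpression-labelled library 1, SE 0.334, limma adjusted p = 4.16e-05). Sdhaf1 and its client Sdhb were both without a rise, unlike Sdha, Sdhc and Sdhd. The other complex II factors on the list, Sdhaf2, Sdhaf3 and Sdhaf4, were higher in overexpression-labelled library 1, by 1.08, 1.95 and 0.99 log2 units.

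Regulators of mitochondrial biogenesis and mitochondrial DNA expression lay near the shares of all genes (26.8% risen, 34.4% fallen), with 6 of 18 risen and 5 fallen in overexpression-labelled library 1 (median 0.00, against -0.15 for all genes). Gabpa, the DNA-binding subunit of nuclear respiratory factor 2, rose by 1.04 log2 units (limma adjusted p = 3.61e-05). Tfam, which packages mitochondrial DNA, fell by 0.44 (limma adjusted p = 0.0478), and the coactivator gene Ppargc1a fell by 0.89 (limma adjusted p = 0.0361), but neither passed under the 3 other scalings (limma adjusted p = 0.0541 to 0.271). Nrf1, Esrra and Ppargc1b did not pass (-0.31, -0.29 and 0.23). The lowest was Polg2, the accessory subunit of the mitochondrial DNA polymerase, with 81 and 1699 reads in overexpression-labelled libraries 1 and 2, against 1626 and 1519 in wildtype (-3.92 log2 units in overexpression-labelled library 1, SE 0.204, limma adjusted p = 3.16e-09). None of these lists had a member called in overexpression-labelled library 2 by limma, where their medians lay between -0.11 and 0.17.

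Members often share a promoter region with another gene. Within 1000 bases of the start of 34 members lies the start of a protein-coding gene on the other strand (GENCODE M21; this search was added after the values were seen, and the neighbours named were chosen by theirs). Of the 31 neighbours tested, 11 rose and 6 fell in overexpression-labelled library 1, with a median of 0.19 log2 units (26.8% of all genes rose and 34.4% fell, with a median of -0.15), while the median of these 34 members was 0.98 and that of the 52 tested members with no such neighbour 1.05. Ndufb9 rose by 1.06 log2 units where its neighbour Tatdn1 fell by 0.90 (limma adjusted p = 0.00587). In other pairs both rose, such as Ndufs6 (1.63) with the mitochondrial ribosomal gene Mrpl36 (1.85), and Ndufb11 (0.64) with Rbm10 (1.26). Annotated exons of 28 members overlap those of a gene on the other strand. Atp5j lies head to head with Gabpa, and their exons overlap by 397 bases. Atp5o overlaps D430001F17Rik and Gm15976 by 346 and 356 bases, and Ndufaf2 overlaps B230220B15Rik by 1955. Strand use in the counting is not given in the sources used here, so reads in such stretches cannot be told apart. The median difference in overexpression-labelled library 1 was 1.0 for the 27 tested members with an overlap and 1.05 for the 59 without.

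Cell type markers also differed between the libraries. Neutrophil and monocyte markers had their highest sums in overexpression-labelled library 2, and markers of dividing cells in overexpression-labelled library 1. All 10 markers of dividing cells tested rose there by limma (median 3.92 log2 units), and their summed counts per 1000000 reads (CPM) were 2706 and 209 in overexpression-labelled libraries 1 and 2, against 177 and 159 in wildtype. None of the 10 was at 0 in any library. The 8 B cell markers summed to 3338 and 5626 CPM in overexpression-labelled libraries 1 and 2, against 5158 and 5733 CPM in wildtype, and in overexpression-labelled library 1 limma called 3 of them higher and 5 lower. The 7 T and NK cell markers summed to 2.62 and 22.6 CPM in overexpression-labelled libraries 1 and 2, against 47.5 and 49.1 CPM in wildtype, with Nkg7 and Gzma at 0 reads in library 1. All 6 markers of plasmacytoid dendritic cells fell, to 1.37 CPM, against 131 and 71.7 CPM in wildtype, with Klk1 and Cd209d at 0. The 11 erythroid markers summed to 779 and 13.3 CPM in overexpression-labelled libraries 1 and 2, against 24.9 and 25.99 CPM in wildtype, and 2 of the 3 tested rose in overexpression-labelled library 1. Most of the sum in overexpression-labelled library 1 was Car2, a carbonic anhydrase, with 11805 and 164 reads in overexpression-labelled libraries 1 and 2, against 422 and 301 in wildtype, and the 6 haemoglobin genes had 0 reads in all libraries. The 10 neutrophil markers summed to 141 and 1609 CPM in overexpression-labelled libraries 1 and 2, against 7.15 and 109 CPM in wildtype. The 9 of them tested had median differences of 1.74 and 5.16 log2 units. The 7 monocyte markers summed to 34.9 and 220 CPM in overexpression-labelled libraries 1 and 2, against 44.4 and 51.8 CPM in wildtype. The part of these differences in the values of the members was not tested.

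Transcript length moved with the difference in overexpression-labelled library 1. The principal transcripts of the members had a median length of 977 bases, against 2984 bases for the 11758 tested genes with a length. In overexpression-labelled library 1 the median of all genes under 1 kb was 0.33 log2 units, and that of genes over 4 kb was -0.29. Within the same length class the members lay higher: 1.17 against 0.33 for all genes under 1 kb (44 members of 695 genes), 0.93 against 0.14 from 1 to 2 kb (31 of 2448) and 0.70 against -0.09 from 2 to 4 kb (9 of 4885). A stretch of at least 98% identity to another gene was found in 28 tested members, Uqcr11, Atp5j, Atp5o and Cycs among them. Both strands were searched, so a gene that overlaps a member at its own locus counts as well as a copy elsewhere. Atp5j and Atp5o, for example, overlap genes on the other strand. How the authors' counting treated reads from such stretches is not given in the sources used here. Of these 28 members 27 rose (median 1.00), and of the 58 without such a stretch 44 rose and 1 fell (median 1.07).

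**Figure D4:**
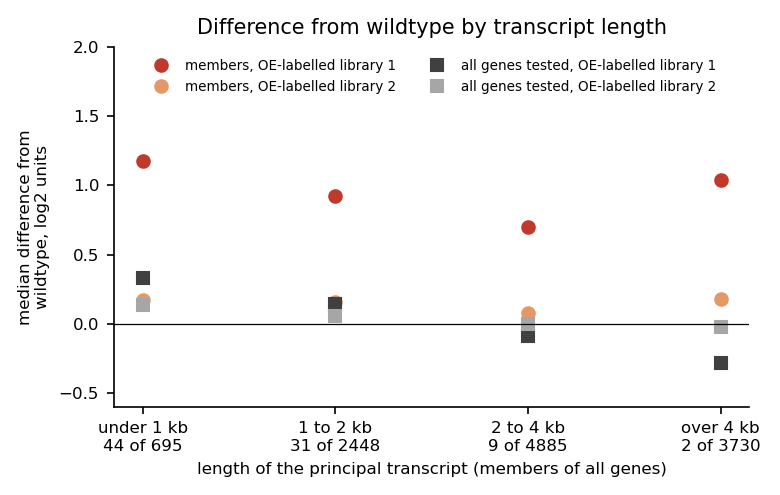
Median difference from the wildtype mean, in log2 units, by length of the principal transcript, for members (circles) and all genes tested (squares) in overexpression-labelled libraries 1 and 2. Under each length class stand the numbers of members and of all genes; in overexpression-labelled library 1 the members lie above all genes in each class, at 1.17 against 0.33 under 1 kb, while the class over 4 kb holds 2 members.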

How the data were processed

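STAR, HTSeq, DESeq2 and the build mm10 are named in the submitters' processing notes; versions, annotation and strand setting are not given in the sources used here. The authors deposited log2 values with a floor of 4.949 for genes without reads, in the form of a variance stabilizing transformation. Inverting it gave whole reads for 100% of values within 0.01; reads, CPM and RPKM come from these. A genotype label misspelled for wildtype library 2 was read as wildtype, and the header and title of overexpression-labelled library 1 disagree in 1 digit.

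Genes were kept if 2 libraries reached 10 reads (at the median size) and all libraries together reached 15, which left 12617. As the deposited unit is log2 and not counts, limma-trend was used (package version 3.58.1 under R 4.3.3), two-sided, adjusted over all genes tested, without covariates. Its prior carried 12.3 degrees of freedom beside 1 residual in single-library fits, and 2.44 beside 2 with both groups. On this scale the changes of genes with few reads are understated. Gene lengths and positions are from GENCODE M21 (GRCm38), and stretches shared with other genes were sought on both strands with blastn 2.17.0. 

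Members, lists and the rule for named genes were chosen with earlier results of these data known. The rule took the highest level and the extreme differences of each role group and list, all core, complex II and paralogue genes, and chosen regulators. Alternatives were other scalings, filters, log scale, limma-voom, a robust prior and each library left out. The values of 1 member are not reported here.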

Additional observations from a re-analysis of the deposited data

How the results depend on the processing

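No paired analysis was possible because the labels carry no replicate numbers; library numbers were assigned in order and pair nothing. No difference past the threshold changed sign under the alternatives run. In overexpression-labelled library 1 the median member difference was 1.18 log2 units with library totals, 1.23 with totals without Rn45s and 1.14 with recomputed size factors, where the median of all genes was -0.03, 0.02 and -0.07, against -0.15; relative to all genes the members lay 1.15 to 1.30 higher. With no filter on low reads, 2642 genes and 24 members were called there, of which 23 rises were shared with the main result and 1, Cox4i2, rests on 1 read; otherwise 68 to 74 members rose, against 71. In overexpression-labelled library 2 all genes called numbered 58 with totals without Rn45s, 75 with recomputed size factors, 56 on log2 of reads plus 0.5, 614 by limma-voom and 0 with no filter or a filter on a mean of 10 reads, against 209, and limma-voom called 1 member. Over both groups, leaving out each library gave 0 to 7721 genes, 0 to 72 members and a median of 0.16 to 1.04 log2 units. Of 3680 values for the 86 tested members and other named genes under alternatives, 103 newly passed, 94 of them over both groups without overexpression-labelled library 2, which repeats the comparison of library 1 alone, and 84 no longer passed, 63 of them with no filter. Leaving out a wildtype library left 1 library against 1 in the single-library comparisons, with no test; the median was 1.08 and 1.02 for overexpression-labelled library 1, and 0.15 and 0.20 for overexpression-labelled library 2.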
